A study of Mus musculus with 12 samples.

Results

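Genes of nucleoside uptake, first phosphorylation and deamination were examined for DNA methylation (DNAme) in PKD1-Het mouse proximal tubule cells, some treated with 5-aza-2′-deoxycytidine (Aza). They were chosen by their roles and number 10 of the 22225 protein-coding genes of the annotation: the concentrative nucleoside carriers Slc28a1, Slc28a2 and Slc28a3, the equilibrative carriers Slc29a1, Slc29a2 and Slc29a3, the nucleoside kinases Uck1, Uck2 and Dck, and the deaminase Cda. The cells came from Pkd1 flox/-:TSLargeT mice, so every group was heterozygous for Pkd1 and carried the large T antigen transgene. They were used at passage 3 and treated for 24 h with PBS, with free Aza at 50 µM, with free Aza at 50 µM plus metformin at 300 µM and tolvaptan at 10 µM (F-MTAza), or with the same 3 drugs and doses in micelles (NP-MTAza). Each group had 3 libraries of reduced representation bisulfite sequencing (RRBS), which reads methylation at CpGs near MspI cut sites (CCGG). The labels do not say whether the libraries of a group came from separate cultures, so p-values measure the spread between these libraries.

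Aza is a cytidine analogue that must be taken up and phosphorylated before it can enter DNA, where it traps the DNA methyltransferases. The Slc28 carriers (CNT1 to CNT3) move nucleosides into the cell with sodium, against a gradient, and the Slc29 carriers (ENT1 to ENT3) let them equilibrate across a membrane. Dck adds the first phosphate to deoxycytidine and to Aza, Uck1 and Uck2 do so for uridine and cytidine, and Cda deaminates cytidine analogues to uridine forms. A methylated promoter is commonly found at silent genes, whereas the bodies of most genes are methylated in mammalian cells. RRBS measures neither RNA nor drug uptake, so the levels below describe the DNA of these genes only.

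The rule for these genes left out Aza replicates 1 and 2, whose CpG levels had Spearman correlations of -0.0025 to 0.0019 with those of the other 10 libraries (20 pairs), against 0.633 to 0.831 among the 10 (45 pairs). Aza alone was therefore 1 library, replicate 3. The 10 libraries held 25336747 to 65817118 reads over their listed CpGs, with a median of 7 to 9 reads per CpG. Over the 462130 CpGs with at least 5 reads in all 10, the level was 71.4% to 72.5% in PBS, 49.5% in Aza replicate 3, between 51.5% and 52.9% with F-MTAza and between 48.0% and 49.9% with NP-MTAza. Among proximal tubule markers, the promoter of the transcription factor Hnf4a was at 86.1% in PBS, while that of Lrp2, the endocytic receptor megalin, was at 16.6%. Most marker promoters of this cell type had too few shared CpGs, so DNAme could not check the labelled cell type further.

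Promoters reached from 2000 bp before to 500 bp after the gene start, and gene bodies covered the rest of the gene, on mm9. A level is the percentage of methylated reads over the CpGs with at least 5 reads in all 10 libraries, and features with at least 3 such CpGs were tested. By this measure 5 of the 10 member promoters and 9 of the 10 bodies could be tested, with 185 shared CpGs in all. The promoters of Slc28a1, Slc28a2, Uck1, Uck2 and Cda and the body of Slc28a2 held no CpG shared by all 10 libraries.

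Stretches that carry the promoter measurement of the first kinase and the promoter and body measurements of an equilibrative carrier are shown first, since near the start and inside the gene the levels were opposite. Each is printed 5′ to 3′ on the strand of the gene, from mm9, with no annotated UTR base. The CpGs counted for its level, each measured in all 10 libraries, are in capitals. The Dck promoter stretch lies upstream of the gene start at chr5:89193853-89193890 (+), with 3 measured CpGs 158 to 142 bp before the start. The Slc29a2 promoter stretch is upstream at chr19:5023895-5024005 (+), with 8 counted CpGs. A further CpG near its end, at position 5023999, was also shared by all 10 libraries. It is left in lower case and is not counted in the stretch. The Slc29a2 body stretch spans coding exon and intron at chr19:5026354-5026562 (+), with 9 counted CpGs.
Dck promoter: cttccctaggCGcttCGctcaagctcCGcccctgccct
Slc29a2 promoter: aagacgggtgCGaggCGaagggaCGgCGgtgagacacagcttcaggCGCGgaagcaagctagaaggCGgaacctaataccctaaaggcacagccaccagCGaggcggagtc
Slc29a2 body: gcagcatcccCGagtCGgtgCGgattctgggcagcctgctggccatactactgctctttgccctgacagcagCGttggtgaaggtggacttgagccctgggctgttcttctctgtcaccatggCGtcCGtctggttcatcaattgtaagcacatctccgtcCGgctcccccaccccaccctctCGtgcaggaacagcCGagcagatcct

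In the Dck promoter stretch 9 of the 10 libraries had no methylated read among 18 to 43 reads, and PBS replicate 2 had 3 of 18. In the Slc29a2 promoter stretch all 10 libraries were between 0% and 2.5%. The Slc29a2 body stretch was methylated in PBS, at 96.3% to 98.5%. All treated libraries of the Slc29a2 stretch were below all PBS libraries, with 51.8% in Aza replicate 3, F-MTAza between 61.2% and 84.4%, and NP-MTAza between 72.5% and 73.3%.

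Every 30-base window of the Dck promoter stretch and of both Slc29a2 stretches was found once on mm9, counting both strands. Around the 149 shared CpGs of the member bodies, the centred 30-base window was found once for 131, and those in over 100 copies numbered 10, in Dck (4), Slc28a3 (4) and Slc28a1 (2).

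The kinase Dck, which performs the rate-limiting first step for Aza, had an unmethylated promoter and a methylated body in PBS. Over 10 shared promoter CpGs its level was 0.685%, 3.09% and 0.595% in PBS, 0% in Aza replicate 3, 0%, 2.44% and 0% in F-MTAza and 0%, 0.637% and 0% in NP-MTAza. The groups overlapped, and a count of 0 in the 142 reads of Aza replicate 3 allows a level of up to 2.11%. With 1.46% ± 1.41 (SD, n = 3) in PBS, the promoter had little methylation to lose, and neither combination passed the limma test (adjusted p = 0.375 for F-MTAza and 0.226 for NP-MTAza).

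In the Dck body 7 shared CpGs gave 96.1%, 98.7% and 98.1% in PBS, 70.6% in Aza replicate 3 (Wilson 95% interval 63.7% to 76.7%, counting error only), 68.6%, 36.5% and 82.9% in F-MTAza and 66.1%, 60.4% and 49.7% in NP-MTAza. All treated libraries were below all PBS libraries, and the F-MTAza libraries were far apart, with an SD of 23.8 points against 1.37 in PBS. The body fell by 34.97 points with F-MTAza (limma adjusted p = 0.00172) and by 38.9 points with NP-MTAza (0.000927). The fall of 27.0 points in Aza replicate 3 passed with an adjusted p of 0.0268, which rests on a lone library assumed to vary like the other groups, and it was lost with each CpG counted equally (0.05004), on the percent scale (0.102) and without PBS replicate 2 (0.0621). Over the 3 body CpGs whose window was found once the group means were 97.1% in PBS, 66.7% in Aza replicate 3, 60.3% in F-MTAza and 56.0% in NP-MTAza.

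**Figure D1:**
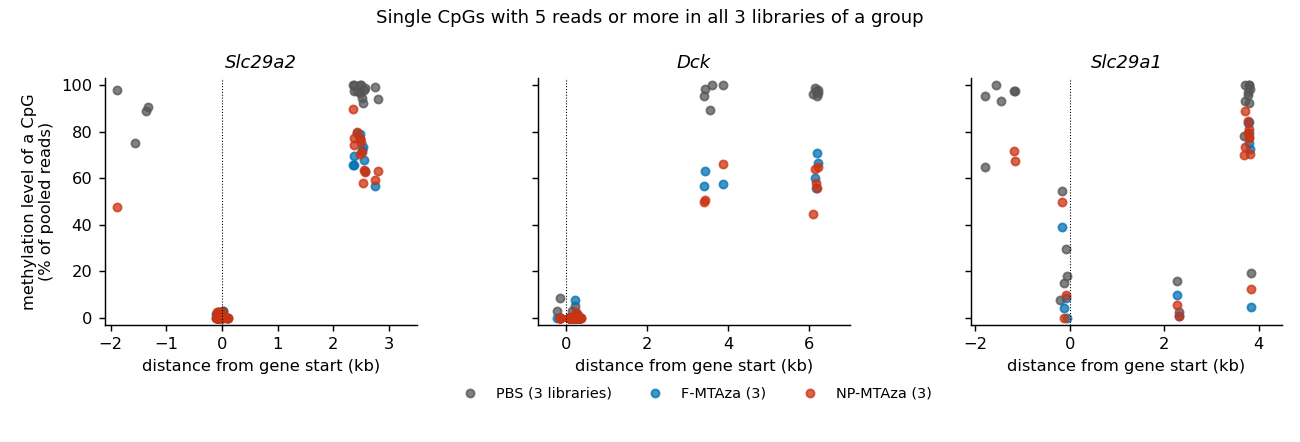
DNAme level of single CpGs of Slc29a2, Dck and Slc29a1 (y axis, percent of reads pooled over the 3 libraries of a group) against the distance from the gene start in kb (x axis), for PBS, F-MTAza and NP-MTAza. The CpGs at the starts of Slc29a2 and Dck are near 0% in each group, those inside the genes are near 100% in PBS and lower in both combinations, and the Slc29a1 body holds both kinds.

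The uridine-cytidine kinases had the same layout. At the Uck1 promoter, over every listed CpG, levels were 2.02% and 1.42% in PBS replicates 1 and 3, 0% in Aza replicate 3, and at most 0.440% in F-MTAza and 1.19% in NP-MTAza. PBS replicate 2 listed no CpG there. At the Uck2 promoter the highest level of any of the 9 libraries with reads was 4.67%, in PBS replicate 2. Both starts were thus unmethylated with or without drug, with no test because no CpG was shared by all 10 libraries.

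The Uck1 body was at 96.6%, 96.5% and 96.1% in PBS, 65.1% in Aza replicate 3, 55.0%, 67.8% and 64.1% in F-MTAza and 58.3%, 60.3% and 73.7% in NP-MTAza, over 9 CpGs. The treated libraries did not overlap PBS, and the body fell by 34.1 points with F-MTAza (limma adjusted p = 3.67e-05) and by 32.3 points with NP-MTAza (3.99e-05). The Uck1 record overlaps the neighbouring Pomt1 by 4 bp. The Uck2 body, over 27 CpGs, was at 79.4%, 81.8% and 78.9% in PBS, 48.6% in Aza replicate 3, 43.5%, 39.0% and 50.4% in F-MTAza and 48.7%, 54.3% and 55.7% in NP-MTAza. It fell by 35.7 points with F-MTAza and fell by 27.1 points with NP-MTAza. Uck2 had an unmethylated stretch in its body, at 0% to 2.17% in all 10 libraries. It is shown because it lies beyond the promoter window, 849 to 931 bp into the gene, at chr1:169214317-169214420 (-), in an intron. Neither Dck nor Uck1 had a shared CpG at that distance from the start, so the kinases could not be compared there.
Uck2 body: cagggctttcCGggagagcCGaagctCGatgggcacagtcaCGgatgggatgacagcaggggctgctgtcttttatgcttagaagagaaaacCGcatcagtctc

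Among the equilibrative carriers, Slc29a2 (ENT2) and Slc29a3 (ENT3, mainly of intracellular membranes) also had unmethylated starts. Over 11 shared CpGs the Slc29a2 promoter was at 0%, 3.57% and 0.637% in PBS and at most 1.67% in the 7 treated libraries. Its window held a methylated part further upstream: from -2000 to -1500 bp relative to the start the pooled level was 95.5% in PBS, 47.8% in Aza replicate 3, 67.0% in F-MTAza and 64.7% in NP-MTAza, whereas over the last 500 bp before the start it was 0.598%, 1.72%, 0.391% and 0.786%. Those pooled levels use every listed CpG, which differ between libraries, and carry no test. Over the whole Slc29a2 window and every listed CpG, PBS spread from 5.61% to 46.1%, and with each CpG counted equally from 17.1% to 25.5%.

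The Slc29a3 promoter, over 9 shared CpGs, was at 0%, 6.25% and 1.16% in PBS and at 0% in all 3 NP-MTAza libraries, where 101, 209 and 158 reads allow up to 2.97%, 1.44% and 1.90%. The groups overlapped, and the limma adjusted p was 0.155. The Slc29a3 body fell from 95.3%, 89.3% and 91.9% in PBS to 59.5%, 64.4% and 64.0% in F-MTAza, 65.0%, 55.3% and 58.1% in NP-MTAza and 57.3% in Aza replicate 3, over 25 CpGs, each with a window found once. The Slc29a2 body, over 21 such CpGs, was at 97.6%, 96.7% and 98.0% in PBS, 66.4%, 56.1% and 71.1% in F-MTAza, 68.6%, 66.5% and 65.1% in NP-MTAza and 55.1% in Aza replicate 3. Neither body had a treated library inside the PBS range, and the Slc29a2 loss in Aza replicate 3, 42.4 points, was the largest of any member body in any comparison with PBS.

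Slc29a1 (ENT1), the main equilibrative carrier of the plasma membrane in many cells, differed from these 2 carriers. The annotation gives it 24 transcript starts, spread over the gene, so the window used here is the most upstream of several. Over every listed CpG its promoter was at 70.6%, 76.3% and 58.7% in PBS, 52.9% in Aza replicate 3, 43.9%, 50.7% and 51.1% in F-MTAza and 43.1%, 57.4% and 53.3% in NP-MTAza. The 6 combination libraries were below the 3 of PBS, but the window overlaps the neighbouring gene Gm7325 by 640 bp, and over the 3 shared CpGs, 80 to 174 bp before the start, the groups overlapped (22.7% to 41.7% in PBS, 6.90% to 31.8% in F-MTAza). The test over shared CpGs was not passed (limma adjusted p = 0.182 for F-MTAza and 0.245 for NP-MTAza). Over every listed CpG it was passed in F-MTAza (0.0379), though the libraries then do not hold the same CpGs.

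The Slc29a1 body was the least uniform. Of its 8 shared CpGs, 5 were methylated at 75% or more in every PBS library and lay 3764 to 3816 bp from the start, while an intronic pair at 2271 and 2304 bp, shown here because it weighs on the level of the gene, was little methylated. That pair lies at chr17:45734241-45734295 (-) and was read at 0% to 12.7% in the PBS libraries and 2.41% to 6.72% in the treated ones.
Slc29a1 body: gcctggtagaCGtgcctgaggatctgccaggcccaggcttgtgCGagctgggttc

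The 2 CpGs of this stretch took 300 of the 419 reads of the Slc29a1 body in PBS replicate 1, 126 of 349 in replicate 2 and 10 of 64 in replicate 3, and the level of the body was 29.8%, 59.6% and 70.3% in that order. With each CpG counted equally the same libraries gave 64.3%, 67.4% and 62.5%. Read-weighted, the body fell by 29.9 points with F-MTAza (limma adjusted p = 0.0180), fell by 30.04 with NP-MTAza (0.0160) and fell by 33.6 in Aza replicate 3 (0.0493). With each CpG counted equally the falls were 13.3 points (0.0565, no longer called), 15.7 points (0.0286) and 12.9 points (0.171, no longer called). Without PBS replicate 3 the read-weighted fall was 21.4 points with F-MTAza (0.0698), and the body fell by 21.5 points with NP-MTAza (0.0622), and the calls were also lost without PBS replicate 2 and without replicate 3 of the treated group. In Aza replicate 3 the call was lost under 11 of 17 alternatives.

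**Figure D2:**
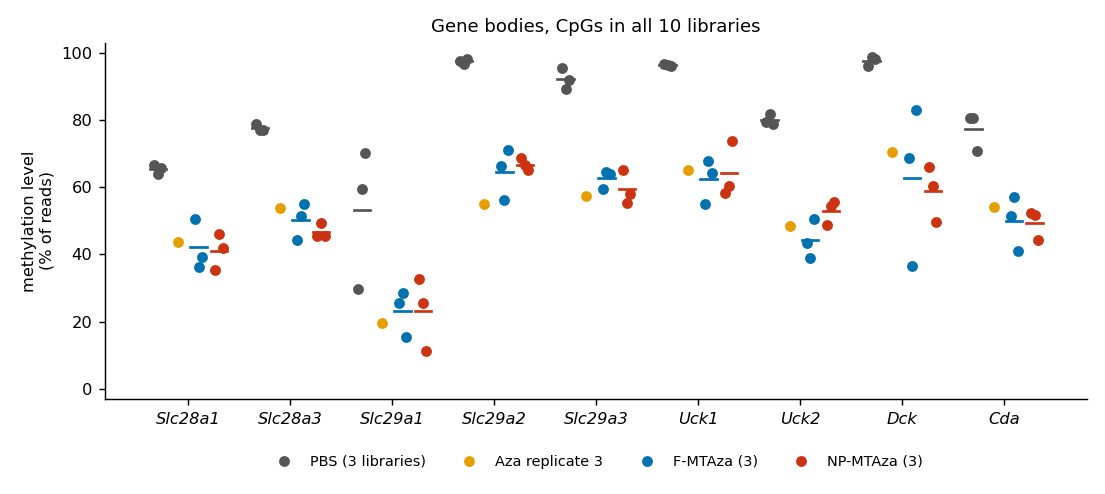
DNAme level of the 9 tested member bodies (y axis, percent of reads over CpGs in all 10 libraries). Each point is a library and bars are means of 3 libraries. Except for Slc29a1, where PBS replicate 1 at 29.8% lies inside the treated range, every treated library is below every PBS library. How many of all 11675 tested bodies share this was not counted, but 79.2% to 86.6% of them were called lower.

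The concentrative carriers are used by proximal tubule cells to recover nucleosides from the filtrate. The observed over expected CpG ratio of their promoters was the lowest of the members: 0.263 for Slc28a1, 0.0900 for Slc28a2 and 0.281 for Slc28a3. It was 0.304 for Cda, 0.331 for Slc29a3 and 0.422 to 0.635 for the other 5 members, with a median of 0.390 over all 22225 promoters. Of all promoters, 34.5% had a lower ratio than Slc28a1, 4.3% than Slc28a2 and 36.9% than Slc28a3. The Slc28a2 window held 10 CpGs and no CCGG, the MspI site, which 88.4% of all promoters hold at least once. No PBS library listed a CpG there, so its promoter was not measured.

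The Slc28a3 promoter was the only member promoter that passed the test, in NP-MTAza. Its 3 shared CpGs, 151 to 345 bp after the start, lie in coding exon and intron at chr13:58711883-58712098 (-), and the sequence is shown because the promoter call rests on these CpGs alone. For 2 of the 3, the 30-base window around the CpG occurs more than once on mm9, with at most 2 copies.
Slc28a3 promoter: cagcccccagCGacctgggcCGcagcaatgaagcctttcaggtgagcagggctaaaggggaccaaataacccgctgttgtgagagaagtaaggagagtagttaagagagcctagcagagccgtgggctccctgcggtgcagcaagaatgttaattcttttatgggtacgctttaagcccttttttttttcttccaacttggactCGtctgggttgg

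Over these the level was 52.2%, 45.0% and 44.0% in PBS, 22.5% in Aza replicate 3, 36.8%, 18.2% and 36.4% in F-MTAza and 29.4%, 6.25% and 8.93% in NP-MTAza. All 7 treated libraries were below the PBS libraries, and F-MTAza and NP-MTAza overlapped. The fall of 32.2 points in NP-MTAza, from 47.1% ± 4.45 to 14.9% ± 12.7 (SD, n = 3), had a limma adjusted p of 0.0172. It was lost without PBS replicate 1 (0.0560) or 2 (0.0621) and without NP-MTAza replicate 2 (0.0562) or 3 (0.0619). The falls of 16.6 points in F-MTAza (0.177) and 24.5 points in Aza replicate 3 (0.221) did not pass.

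Slc28a1 had promoter reads in too few libraries to test: 71.7% and 64.5% in PBS replicates 1 and 2, 35% in Aza replicate 3, 31.3% in F-MTAza replicate 2 and 46.9%, 43.8% and 52.4% in NP-MTAza, over every listed CpG. Its body fell from 66.7%, 63.9% and 65.7% in PBS to 50.7%, 36.3% and 39.3% in F-MTAza and 35.4%, 46.0% and 42.0% in NP-MTAza, with 43.8% in Aza replicate 3. The Slc28a3 body, over 29 CpGs, stood at 78.7%, 77.0% and 77.0% in PBS, 44.3%, 51.5% and 55.1% in F-MTAza, 45.5%, 49.3% and 45.4% in NP-MTAza and 53.7% in Aza replicate 3. The treated libraries of both bodies were all below PBS. The Slc28a2 body could only be read over CpGs that differ between libraries, at 40.6% to 80% in PBS and 8.91% to 34.7% in the 7 treated libraries, and was not tested.

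Cda, which inactivates cytidine analogues, had a methylated upstream region in PBS, where its start was hardly read. Pooled over every listed CpG, the stretch from 1000 to 500 bp before the start was at 97.7% in PBS, 54.8% in Aza replicate 3, 62.3% in F-MTAza and 67.0% in NP-MTAza, and the last 500 bp before it at 51.5%, 27.0%, 10.3% and 30.6%. The first 500 bp of the gene were at 0% to 2.01% in all groups, with only 5 reads in PBS. Over the whole window the libraries stood at 63.4%, 100% and 85.2% in PBS (134, 13 and 182 reads), 22.2% in Aza replicate 3, 35.3%, 13.6% and 52.6% in F-MTAza and 32.8%, 47.8% and 42.0% in NP-MTAza. The treated libraries were below those of PBS, with no test since the CpGs differed. The Cda body fell from 80.7%, 80.5% and 70.9% in PBS to 51.6%, 57.1% and 41.0% in F-MTAza, 52.3%, 51.8% and 44.2% in NP-MTAza and 54.2% in Aza replicate 3.

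**Figure D3:**
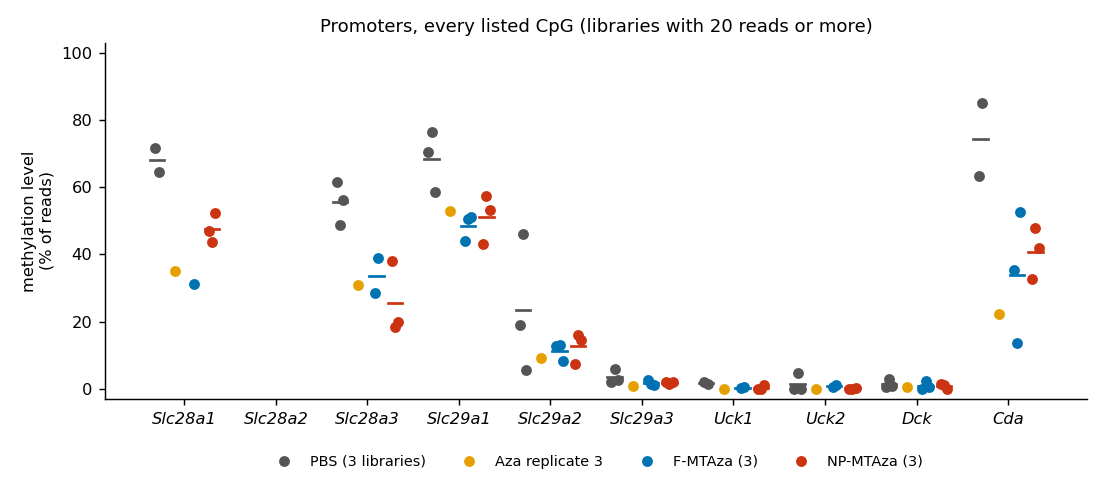
DNAme level of the 10 member promoters (y axis, percent of reads over every CpG a library lists, libraries with 20 reads or more there). Each point is a library and bars are means where a group has more than 1; Slc29a3, Uck1, Uck2 and Dck are under 6% in each library, Slc28a1, Slc28a3, Slc29a1 and Cda are higher in PBS than in the treated groups, and Slc28a2 has no library with enough reads.

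Read against all genes, the member bodies were close to the background. All 9 tested bodies were called lower (adjusted p under 0.05 and at least 10 points) with F-MTAza, with NP-MTAza and in Aza replicate 3, where 84.4%, 86.6% and 79.2% of all 11675 tested bodies were. The median member difference was -29.9 points with F-MTAza, -30.7 with NP-MTAza and -31.3 in Aza replicate 3, and over all bodies it was -25.7, -27.6 and -28.6. Among bodies at 60% or more in PBS, the 8 members kept a median of 64.6%, 64.2% and 67.3% of the PBS level, and all such bodies 66.5%, 64.4% and 62.7%. Of the 5 tested member promoters, 0 were called with F-MTAza, 1 with NP-MTAza and 0 in Aza replicate 3, where the shares of all 7992 tested promoters called lower were 22.3%, 24.5% and 11.9%. At an unadjusted p under 0.05 the numbers over all promoters were 3245, 3262 and 2300.

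**Figure D4:**
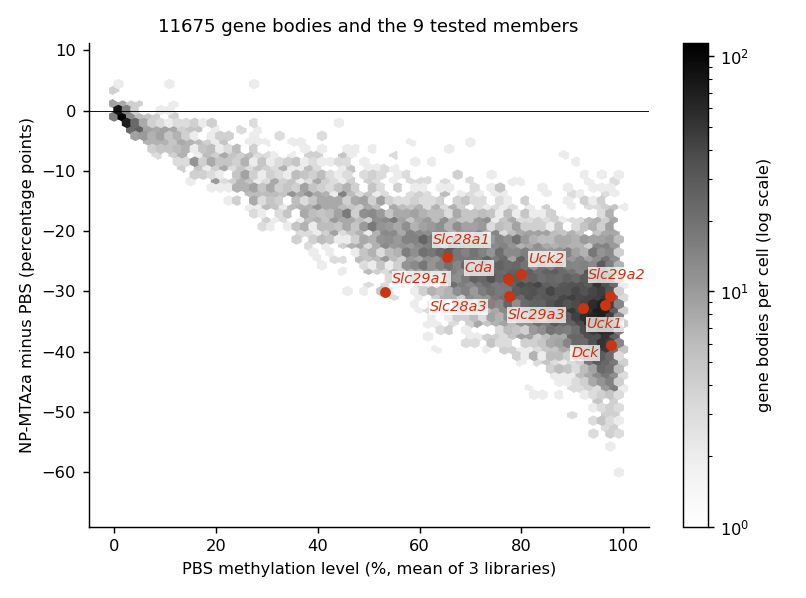
NP-MTAza minus PBS difference in points (y axis) against the PBS level in percent (x axis) for 11675 gene bodies, shaded by their number on a log scale, with the 9 tested members as labelled points. The members lie at -24.3 to -38.9 points, inside the cloud of other bodies, with Slc29a1 at its lower edge for its PBS level.

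Single CpGs with at least 5 reads were also close to the background. With F-MTAza 57 of the 204 member CpGs read in all 6 libraries were called lower (q under 0.01 and at least 35 points in a likelihood ratio test of pooled reads), where 22.0% of all such CpGs were. With NP-MTAza the count was 97 of 368 against 25.9%, and in Aza replicate 3, with no test, 144 of 456 were at least 35 points lower against 30.6%. With at least 10 reads, where fewer member CpGs were left, the member shares were higher, at 41.7% of 24, 41.1% of 95 and 42.6% of 141, against 20.8%, 25.4% and 30.3% of all CpGs. No member CpG was called higher, and over all CpGs the shares were 0.00449% with F-MTAza, 0.00479% with NP-MTAza and, untested, 0.170% in Aza replicate 3. The test pools reads and takes no account of the spread between libraries, and an F test that does had 0 calls over all CpGs at q under 0.01, while 26.0% and 25% of the member CpGs, against 19.4% and 23.0% of all, were past the 35 points at an unadjusted p under 0.05.

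The called CpG with the largest loss in NP-MTAza was taken for each member except Slc28a2, which had no CpG to test. In Cda it was an intronic CpG 11493 bp from the start (chromosome 4, position 137912414), at 100%, 100% and 95.7% in PBS and 20%, 16.7% and 20% in NP-MTAza, a fall of 78.9 points (q = 4.61e-11). In Uck2 an intronic CpG 5854 bp from the start fell by 72.7 points, from 100% in each PBS library to 54.5%, 22.2% and 7.69%. In Dck one 6091 bp from the start fell by 51.7 points, and for the other members the largest falls lay at -50.4 to -65.8 points, all in gene bodies except that of Slc29a2, at -1888 bp from its start. Of the 185 shared member CpGs, 38 were under 10% in PBS, 30 of them in promoters, and 115 were at 80% or more, all in bodies. Of these 115, 9 stayed at 80% or more in Aza replicate 3, 7 in F-MTAza and 4 in NP-MTAza, and their medians were 62.5%, 63.0% and 62.7%. Over all 462130 shared CpGs, 90763 were under 10% in PBS and 253743 were at 80% or more. Of the latter, 32990, 30156 and 15698 stayed at 80% or more, in the same order, with medians of 60.6%, 64.1% and 61.8%.

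Delivery in micelles was compared with the free drugs at the same stated doses and time, as the carriers handle free nucleosides. The paper reports partial loading of Aza into the micelles and release over hours, so exposure to free Aza may have differed. These data do not measure it. Neither any member nor any of the 7992 promoters or 11675 bodies passed the limma test between NP-MTAza and F-MTAza, a share of 0 (0 promoters and 0 bodies), where 406 promoters and 822 bodies had an unadjusted p under 0.05. The difference NP-MTAza minus F-MTAza was -3.90 points in the Dck body (95% interval -26.3 to 18.5), -0.10 in Slc29a1 (-22.1 to 21.9), 2.21 in Slc29a2 (-6.53 to 10.9) and -3.19 in Slc29a3 (-10.7 to 4.29). For Dck and Slc29a1 these intervals still allow differences of over 20 points. The widest gap among the bodies was that of Uck2, 8.61 points higher in NP-MTAza (0.370 to 16.8) with an adjusted p of 0.698, and the Slc28a3 promoter differed by -15.6 (-32.7 to 1.499). At shared CpGs at least 35 points apart whose libraries did not overlap, 2 of 185 member CpGs were lower in NP-MTAza, against 0.546% of all CpGs, and 1 was higher, against 0.317%.

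Those 3 CpGs had few reads. The Cda CpG named above was at 87.5%, 66.7% and 76.9% in F-MTAza, where it was read 8, 6 and 13 times, and its NP-MTAza levels rest on 5, 6 and 10 reads. The Uck2 CpG at position 169162059 on chromosome 1 was at 33.3%, 18.2% and 33.3% in F-MTAza and 57.1%, 66.7% and 80% in NP-MTAza. These CpGs were picked for their difference and carry no test.

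The other genes of the route were taken from a list of 32 nucleoside salvage and dephosphorylation genes and 4 efflux pumps. Of the 32, 16 promoters could be tested, and 5 were called lower with F-MTAza, 5 with NP-MTAza and 3 in Aza replicate 3, where 22.3%, 24.5% and 11.9% of all promoters were. Of their 20 tested bodies 14, 16 and 13 were called lower, and the 4 pump bodies were lower in each, where 84.4%, 86.6% and 79.2% of all bodies were. The deaminase Dctd, which acts on dCMP, had a promoter at 92.8% in PBS, far above that of Dck, and it fell to 53.5% with F-MTAza (limma adjusted p = 0.00150), 64.6% with NP-MTAza (0.00178) and 53.5% in Aza replicate 3 (0.00976). The promoters of Tk1, the cytosolic thymidine kinase, and Nt5c, a deoxynucleotidase, fell by 37.0 and 33.0 points with NP-MTAza from 92.7% and 88.4%.

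The body of Samhd1, which hydrolyses deoxynucleoside triphosphates, fell from 85.1% to 56.2% with F-MTAza, 57.4% with NP-MTAza and 52.8% in Aza replicate 3. The bodies with the largest falls in NP-MTAza were those of the nucleotidase Nt5c1a (41.1 points), the uridine phosphorylase Upp2 (33.8) and Nme7 (33.1), of the nucleoside diphosphate kinase family. Among the pumps, which export nucleotides or drugs, the bodies of Abcg2, Abcc5 and Abcc10 differed by -34.8, -31.4 and -31.1 points, and the Abcc5 promoter by -27.3 from 70.3%.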

How the data were processed

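DNAme was measured by RRBS in 12 libraries, of which 10 were used. Per the labels and methods, the authors used Trim Galore 0.4.4 for trimming and Bismark 0.20.1 on Bowtie2 for alignment (mm9), combined both strands and dropped CpGs under 5 reads. Per CpG the deposited tables give methylated over total reads and a percent, and the percent was found to be rounded down at all but at most 10 CpGs of each library used, so levels were recomputed from the reads. Reads come from size-selected MspI fragments, so CpGs far from CCGG sites are not read, and the median of 7 to 9 reads per CpG leaves a wide counting error at single CpGs. Wilson 95% intervals, and the limit of 3 reads for a level of 0, cover counting error only, and reads without molecular identifiers are not independent molecules.

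Genes were taken from GENCODE M1, the longest record per name. Levels of features with at least 3 CpGs shared by the 10 libraries were compared on the arcsine square root scale with limma 3.58.1 in R 4.3.3, with the 4 groups in 1 fit and Benjamini-Hochberg adjustment over all features. Intervals of differences come from the same fit on the percent scale. A call needed an adjusted p under 0.05 and 10 points. CpGs were tested by a two-sided likelihood ratio test of pooled reads (q under 0.01, 35 points). Python 3.11.15, numpy 2.4.6, scipy 1.17.1 and matplotlib 3.10.9 were used. The tests were tested on simulated data. The text names every member, the 3 called genes per other list and feature with the largest NP-MTAza difference, Samhd1 and Dctd. Per member except Slc28a2 it gives the called CpG of largest loss. The members, lists and tests were chosen with earlier results of these data known.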

Additional observations from a re-analysis of the deposited data

Results flagged for a closer look

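The libraries left out, Aza replicates 1 and 2, read methylation at member promoters that were under 10% in each PBS library. Since the CpG levels of these libraries were uncorrelated with those of every other library, each other included (Spearman correlation 0.00076), a level listed at a promoter may not belong to that promoter, and this was not tested. Over every listed CpG the Dck promoter was at 38.9% in Aza replicate 1 (108 reads, Wilson 95% interval 30.2% to 48.3%), where the highest PBS library was at 2.95%. The Uck1 promoter was at 39.2% in Aza replicate 1 and 42.7% in Aza replicate 2, against at most 2.02% in PBS. The Uck2 promoter was at 35.9% in Aza replicate 1, and that of Slc29a3 at 53.3% in Aza replicate 2 but 0% of 104 reads in Aza replicate 1. In Aza replicate 2 the Dck and Uck2 promoters had 0 methylated reads of 5 each. Aza replicate 3 read at most 0.761% at these 4 promoters. Over all listed CpGs the level was 45.7% in Aza replicate 1, 46.7% in Aza replicate 2 and 45.05% in Aza replicate 3.

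The intronic Slc29a3 CpG at position 60184135 on chromosome 10 had all 3 F-MTAza libraries above the PBS mean (66.7%, 68.8% and 50.0%, against 46.8%) and all 3 NP-MTAza libraries below it (25%, 21.1% and 27.3%). The means of the 2 treatments differed by -37.4 points, NP-MTAza minus F-MTAza. It was 1 of 185 shared member CpGs looked at, it was read 6 to 19 times per treated library, and the difference was not tested. Groups of 3 libraries are too small for a check of single outlying libraries.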

How the results depend on the processing

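The calls of the members were recomputed at 702 combinations of member, comparison and alternative: 676 kept the call, 25 lost it, 1 gained it and none turned the direction of a called value. The losses concerned the Slc29a1 body, the Dck body in Aza replicate 3 and the Slc28a3 promoter in NP-MTAza. At 10x only 2 of the 9 bodies could be tested, those of Slc28a3 and Slc29a2, and both were called in F-MTAza, NP-MTAza and Aza replicate 3, so the count of 2 reflects fewer features. The promoter count in NP-MTAza, 1, was 0 over every listed CpG, at 10x and with at least 10 shared CpGs, where Slc28a3 could not be tested, and between 0 and 1 with a library left out, while that in F-MTAza was 1 over every listed CpG. No member passed between NP-MTAza and F-MTAza under any alternative. The member CpGs called at 10x were 10 of 24 (F-MTAza), 39 of 95 (NP-MTAza) and 60 of 141 (Aza replicate 3), against 20.8%, 25.4% and 30.3% of all CpGs. At 25 points they were 95 and 182, against 39.9% and 45.2% of all CpGs. The F test gave 0 for both, since 4 residual degrees of freedom reached no q under 0.01 at any CpG, and the same dispersion with a chi-square distribution, chosen after seeing the data, gave 53 and 91, against 18.8% and 22.6%. With a library left out the counts ran from 50 to 64, from 95 to 110 and from 140 to 146.

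Replicate numbers are shared by the groups, but same-numbered libraries did not deviate together (correlations -0.039 to 0.011 over 9 pairs, and 0 of 9 libraries correlated best with their own number in both other groups). With the replicate block the members called were 9 bodies and 0 promoters in F-MTAza, 9 and 1 in NP-MTAza, 8 and 0 in Aza replicate 3, and 0 and 0 between NP-MTAza and F-MTAza. Of all bodies 84.2%, 86.4% and 74% were called against PBS under the block, and of all promoters 19.6%, 22.2% and 1.18%. Over all promoters the Aza replicate 3 count fell from 954 to 94 with the block, and was 487, 551 and 574 without PBS replicate 1, 2 and 3. Over all promoters, without PBS replicate 2 the count was 1031 in F-MTAza and 1204 in NP-MTAza, against 1785 and 1960. The labels of NP-MTAza replicates 1 and 2 state 2 barcode sets, as do those of the left-out Aza replicates 1 and 2. Without NP-MTAza replicates 1 and 2 far fewer promoters were called in NP-MTAza, but that fit left 1 library in the group. Few reads per CpG limit the single CpGs, as does the spread between libraries, and Aza alone rests on 1 library.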
